A study of Schmidtea mediterranea with 35 samples.

Results

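In neoblasts of the planarian flatworm Schmidtea mediterranea, 36 of 25462 transcripts were lower than the control by 2-fold or more after both zfp1 RNAi and p53 RNAi at day 13 of treatment but not after either at day 6. They were chosen on these values, and folds are on a log2(RPKM + 1) scale. For each transcript the level was taken as log2(median RPKM of a group + 1), where RPKM is the number of reads per transcript length and library size. The difference of a knockdown from the unc22 control of the same day had to be -1 or lower at day 13 for both knockdowns, and above -1 at day 6 for both. The highest of the 9 group medians had to reach 3 RPKM, which 11932 transcripts did. Of those, 107 were at -1 or lower for both knockdowns at day 13. Among the 107, 48 were already at -1 or lower for both at day 6, 23 for one knockdown, and the remaining 36 are described here.

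The groups were zfp1 RNAi, p53 RNAi and unc22 RNAi, each sampled at days 6, 9 and 13, with 4 libraries a group and 3 for unc22 at day 13. The unc22 animals also ate bacteria carrying double-stranded RNA, against a gene that the labels call non-targeting, so feeding and RNAi were common to all 9 groups. Adults came from CIW4, a single clonal line, and the measured cells were X1 cells, sorted by Hoechst staining. PolyA RNA was sequenced, and 35 libraries remained after 1 had been discarded by the submitters for low yield. The labels do not say whether replicates are separate sets of animals. The p-values below therefore refer to the spread among these libraries alone, part or all of which may be technical.

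Neoblasts are the dividing stem cells that supply every tissue of a planarian, and the X1 gate holds cells with replicated DNA, most of them cycling neoblasts. Some neoblasts are already specialised toward a tissue. In planarians zfp-1 encodes a zinc finger protein of the neoblasts fated to the epidermis, and p53, homolog of the vertebrate tumour suppressor, is also expressed in the stem cells and their early descendants. The deposited table names transcripts by identifier and pairs none with a gene. The levels of the targeted genes were therefore not checked here, marker lists of neoblast classes and other cell types were not applied, and no role is given to any transcript below. In bulk RNA, fewer cells of a type and less RNA per cell cannot be told apart.

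Whole reads recovered from the RPKM values summed to 4391559 to 26115474 per library, with a median of 11272890. A set of 3 libraries stood apart by the number of undetected transcripts. It was 4945 in zfp1 day 6 replicate 1, 5021 in zfp1 day 13 replicate 5 and 4546 in unc22 day 13 replicate 5, against at most 3588 in any other library. Their most abundant transcript took 25.2%, 32.3% and 27.5% of reads. All 3 are from the days that chose the transcripts. The main counts and the changes that rest on them are also given without them.

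The name "lost late" covers only some of the 36 transcripts. Between days 6 and 13 the level of the median transcript of the set changed by -0.21 after zfp1 RNAi, by -0.32 after p53 RNAi and by 0.85 in the unc22 control. In the control 33 of 36 were higher at day 13 than at day 6, 13 of them by 1 or more. After zfp1 RNAi 14 were higher at day 13 than at day 6, 20 were within 0.5 of their day 6 level, and 8 were lower by 1 or more. After p53 RNAi 11 were higher, 17 were within 0.5 and 5 were lower by 1 or more. In 22 of 36 transcripts the control moved farther than either knockdown. The rule fixes part of this count, since some transcripts reached 3 RPKM only in the day 13 control. Among the 24 that reached it in another group, the control moved farther than either knockdown in 12. In 8 of these 24 at least 1 knockdown was lower by 1 or more at day 13. Over all 36, a level lower by 1 or more at day 13 was seen in both knockdowns in 4 transcripts. It was seen in at least 1 knockdown in 9, while 7 were higher at day 13 than at day 6 in both knockdowns. For the same 36 transcripts without the 3 libraries that stood apart, the median changes were -0.08 after zfp1 RNAi, -0.32 after p53 RNAi and 0.74 in the control. The control was then higher at day 13 in 33 transcripts, by 1 or more in 9. It moved farther than either knockdown in 19, and a level lower by 1 or more at day 13 was seen in both knockdowns in 3 and in at least one in 10. Over the 11932 transcripts of at least 3 RPKM, with all libraries, the median changes were 0.05, -0.02 and 0.03 after zfp1, p53 and unc22 RNAi. The choice of the set draws on the same values, so these are descriptions without a test. The group of 36 is accordingly called the set lower at day 13, not the set lost late.

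**Figure D1:**
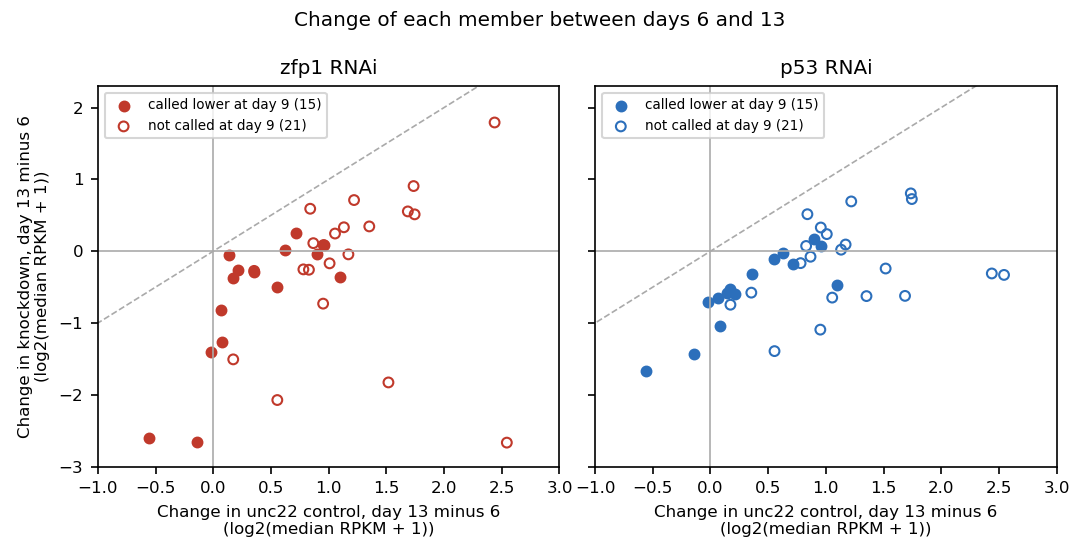
Change of the 36 transcripts between days 6 and 13, in log2(median RPKM + 1), in the knockdown (vertical axis; zfp1 RNAi left, p53 RNAi right) and in the unc22 control (horizontal axis). Each point is a transcript, filled where it was called lower with either knockdown at day 9, and the dashed line marks equal change. Most points lie right of 0, where the control was higher at day 13 than at day 6 (33 of 36), and fewer lie far below 0.

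These changes depend somewhat on the scaling, and the choice of transcripts depends on it more. Dividing by the total reads of a library, in place of the authors' divisors, shifted the median change over the 11932 transcripts to -0.11 after zfp1 RNAi and to -0.21 in the control. The median change of the 36 was then -0.32 after zfp1 RNAi, -0.35 after p53 RNAi and 0.61 in the control, and none of the 3 changed direction. The median difference from the control at day 13 over the 11932 was 0.06 after zfp1 RNAi and 0.16 after p53 RNAi, in place of -0.01 and -0.10, and that of the 36 was -1.26 and -1.0. With this scaling 17 transcripts met the rule, 15 of them among the 36. The scaling was chosen after seeing the data.

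Seen per library, the median of the 36 transcripts in zfp1 RNAi libraries averaged 2.99 ± 0.638 RPKM at day 6, 2.64 ± 0.319 at day 9 and 1.8 ± 0.178 at day 13 (SD, n = 4 each). In p53 RNAi libraries it averaged 3.61 ± 1.11, 2.07 ± 0.409 and 2.3 ± 0.245 RPKM at these days (SD, n = 4 each). In unc22 libraries it averaged 4.6 ± 1.46 RPKM at day 6 and 5.32 ± 1.09 at day 9 (SD, n = 4 each), and 6.96 ± 0.492 at day 13 (SD, n = 3). Without the libraries that stood apart the zfp1 averages were 2.74 ± 0.506 RPKM at day 6 and 1.86 ± 0.158 at day 13 (SD, n = 3 each), and the day 13 control average was 6.71 ± 0.301 RPKM (SD, n = 2). At day 6 the libraries overlapped, with medians of 2.16 to 3.72 RPKM after zfp1 RNAi and 2.14 to 4.82 RPKM after p53 RNAi, against 3.52 to 6.73 RPKM in the control. The mean of the day 9 control lay between those of days 6 and 13. For 23 of 36 transcripts the control medians were ordered by day, and in 26 the day 9 control was nearer to day 6 than to day 13. The unc22 day 13 group held the highest of the 9 group medians for 31 transcripts. The exceptions had it in p53 day 9 for 2 transcripts and in zfp1 day 6, unc22 day 6 and unc22 day 9 for 1 each. The rule fixes part of that count, since 24 of the 36 reached the floor of 3 RPKM in another group and the other 12 only in this one. Over the 24 the median changes between days 6 and 13 were -0.28 after zfp1 RNAi, -0.55 after p53 RNAi and 0.67 in the control, which was higher at day 13 in 21.

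**Figure D2:**
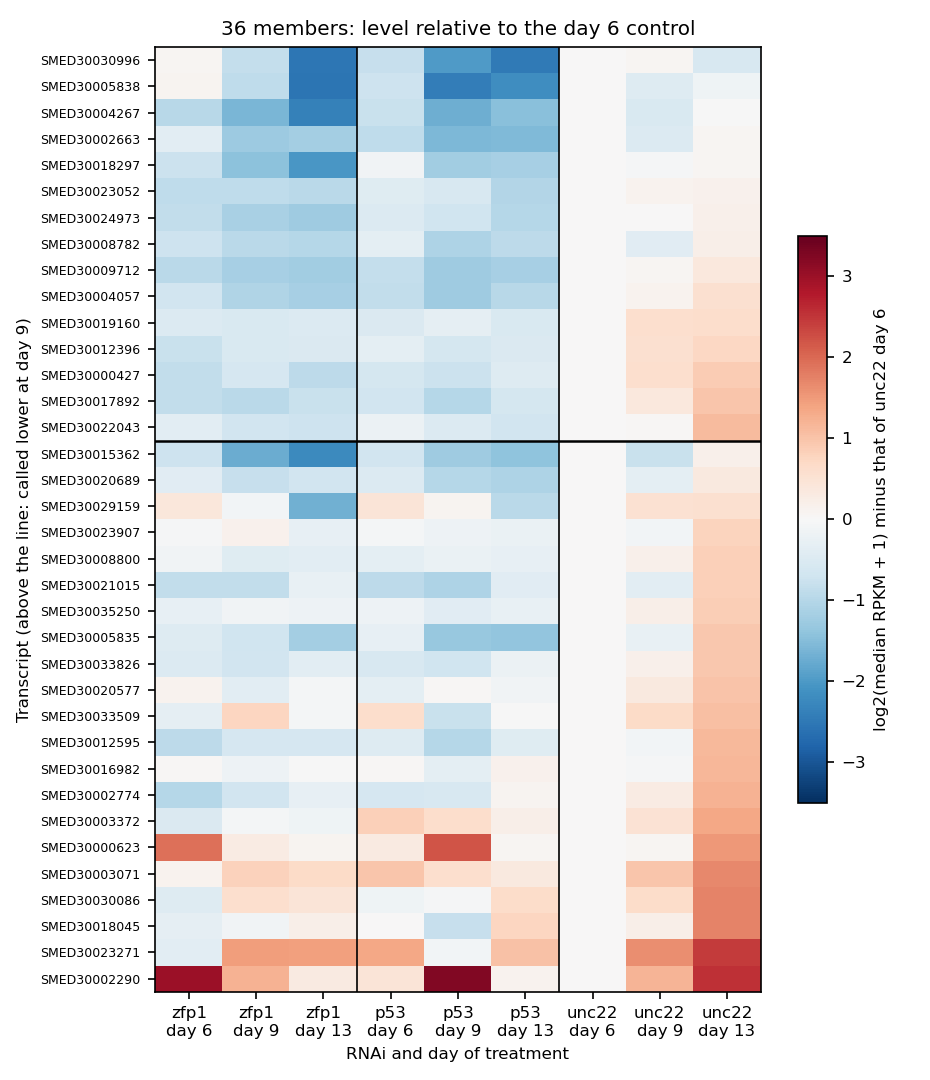
Level of each of the 36 transcripts in the 9 groups, as log2(median RPKM + 1) minus that of unc22 day 6; columns are zfp1, p53 and unc22 RNAi, each at days 6, 9 and 13. Transcripts above the line were called lower with at least one knockdown at day 9 (15), those below it with neither (21); the rightmost column, unc22 day 13, is above 0 for 33 of 36 transcripts.

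At day 6 the differences from the control had a median of -0.45 after zfp1 RNAi, from -1.0 to 2.99, and of -0.35 after p53 RNAi, from -0.92 to 1.35. After zfp1 RNAi 28 transcripts and after p53 RNAi 27 were below the control, 24 of them with both knockdowns, and 14 and 13 were below -0.5. At day 13 the medians were -1.42 after zfp1 RNAi and -1.29 after p53 RNAi, and the lowest differences -2.40 and -2.42. Every zfp1 library lay below every control library for 9 of 36 transcripts at day 6, beside 2.53% of the 19206 transcripts tested, and for 27 at day 13, beside 7.08%. Every p53 library lay below every control library for 11 at day 6, beside 3.97%, and for 27 at day 13, beside 17.5%. The rule used both days, so nothing is read from these counts.

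Just inside the day 13 threshold lay SMED30003071, with differences of -1.0 after zfp1 RNAi and -1.33 after p53 RNAi, and SMED30018045, with -1.53 and -1.0. Just outside lay SMED30021565, with -1.14 and -0.997, and SMED30014395, with -0.99 and -1.36. At day 6, SMED30002774 with -1.0, which is just above the threshold before rounding, and -0.58 and SMED30004267 with -0.97 and -0.77 lay just inside. SMED30015704 with -0.46 and -1.01 and SMED30030310 with -0.50 and -1.03 lay just outside. These transcripts on either side of the day 6 threshold differ by a few hundredths on the log2 scale, which is small beside the spread between libraries.

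Day 9 was the only time that the rule did not compare, and it entered the choice only through the floor of 3 RPKM. Its libraries were therefore tested, with limma on log2(RPKM + 1) over 19206 transcripts, calling those with a Benjamini-Hochberg adjusted p under 0.05. All 36 transcripts passed the filter on low values. The 19206 also held transcripts below the floor of 3 RPKM, so the shares over all tested are not from a set chosen alike. Of the 36, 24 reached that floor in a group other than the day 13 control, and the rest only there. Both knockdowns were compared with the same 4 controls, so their results are given side by side and are not independent. Replicates 3 and 4 of unc22 RNAi, and likewise of zfp1 RNAi, were far closer to each other than other pairs of their day 9 group. The test took each as a separate library.

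After zfp1 RNAi at day 9, 13 of the 36 transcripts were called lower, where 1.07% of all tested transcripts were. None was called higher by limma, where 2.16% of all were, and at an unadjusted p under 0.05 or by limma-voom on the recovered reads there were also 0. The fold change was negative in 30 of 36, where it was in 52.1% of all. Its median was -0.67 on the log2(RPKM + 1) scale, and -0.01 over all tested. The called fold changes ranged from -0.70 to -1.42. All 4 zfp1 libraries lay below all 4 control libraries in 18 of 36 transcripts, where 4.02% of all did.

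After p53 RNAi at day 9, 11 of the 36 were called lower, where 2.06% of all tested transcripts were. None was called higher by limma, where 1.85% of all were, 1 was higher at an unadjusted p under 0.05 and 0 by limma-voom. The fold change was negative in 34 of 36, where it was in 50.7% of all, and its median was -0.80, and 0 over all tested. The called fold changes ranged from -0.72 to -2.14. All 4 p53 libraries lay below all 4 control libraries in 17 of 36, where 5.63% of all did. With both knockdowns 9 of 36 were called, where 0.906% of all were, 4 more with zfp1 RNAi only and 2 more with p53 RNAi only. The other 21 were called with neither.

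The day 9 counts moved with the libraries in the fit. Leaving out the 3 libraries that stood apart, none of them from day 9, left the fold changes as they were but raised the count to 18 for p53 RNAi and to 14 for both knockdowns. A fit on the compared groups alone gave 7 for p53 RNAi.

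**Figure D3:**
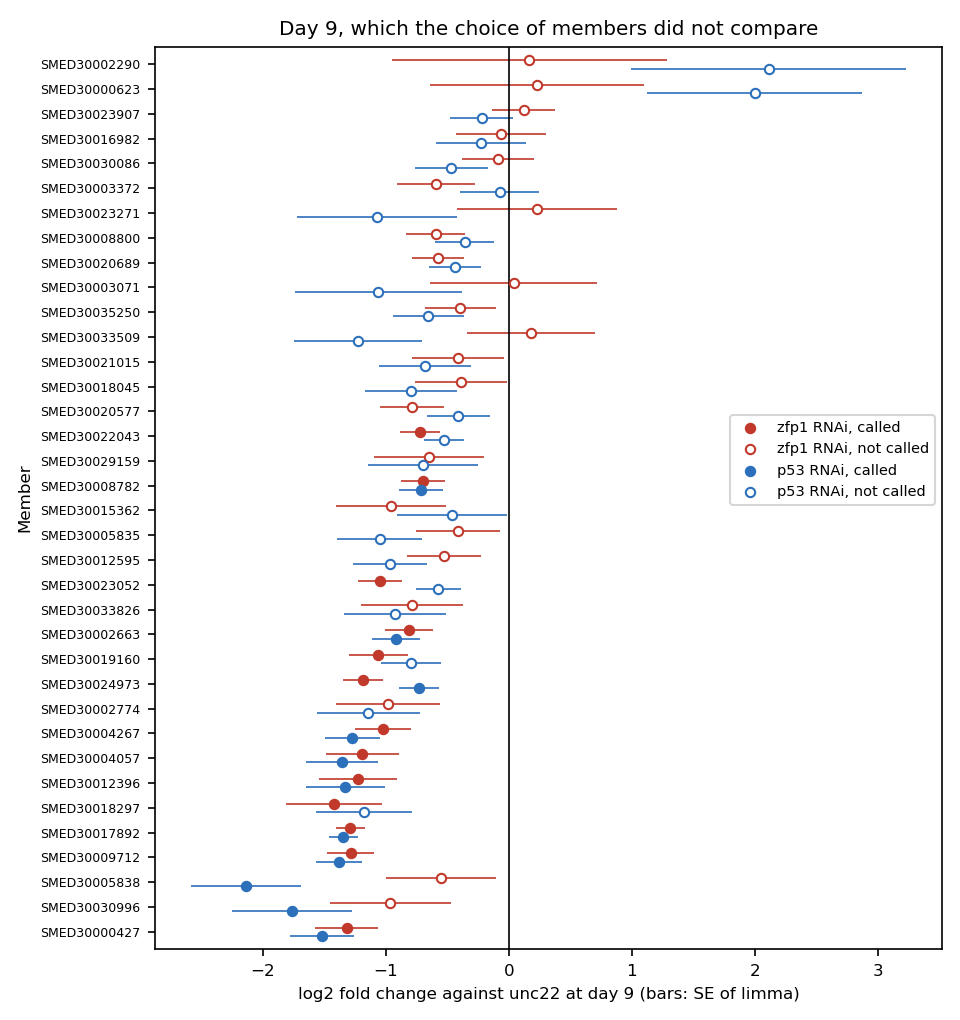
Log2 fold change of each of the 36 transcripts at day 9 against unc22, after zfp1 RNAi (red, upper of each pair) and p53 RNAi (blue, lower), with the standard error of limma. Filled points were called at an adjusted p under 0.05 (13 for zfp1, 11 for p53); all filled points lie left of 0.

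SMED30017892 and SMED30009712, both called with both knockdowns, were chosen after their values were seen. At day 9 SMED30017892 had 0.096, 0.129, 0.164 and 0.109 RPKM after zfp1 RNAi. It had 0.056, 0.158, 0.026 and 0.079 RPKM after p53 RNAi, against 1.59, 1.92, 1.8 and 1.68 RPKM in the unc22 control. No knockdown library came near a control library. Its log2 fold changes were -1.29 ± 0.12 after zfp1 RNAi (SE; limma adjusted p = 4.2e-09) and -1.35 ± 0.12 after p53 RNAi (SE; limma adjusted p = 1.1e-09). The pseudocount of 1 RPKM compresses both, since the knockdown libraries held 3 to 10 reads of it after zfp1 RNAi and 1 to 7 after p53 RNAi, against 37 to 63 in the control.

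At day 6 the groups of SMED30017892 were already apart. On that day it had 0 to 0.286 RPKM after zfp1 RNAi and 0.140 to 0.570 RPKM after p53 RNAi, against 1.02 to 1.52 RPKM in the control. At day 13 it had 0.051 to 0.309 RPKM after zfp1 RNAi and 0.284 to 0.631 RPKM after p53 RNAi, against 3.10 to 3.38 RPKM in the control. Its change between days 6 and 13 was 0.09 after zfp1 RNAi, 0.07 after p53 RNAi and 0.96 in the control. It reached the floor of 3 RPKM in the day 13 control alone, so that a high control on that day was a condition of its choice. Its day 6 differences were -0.87 and -0.68, and with a control median of 1.14 RPKM the log2(RPKM + 1) scale leaves little room below -1.

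SMED30009712, the longest of the 36 at 4149 bases, had a higher level. At day 9 it had 3.01, 2.39, 2.81 and 2.77 RPKM after zfp1 RNAi. It had 2.47, 2.09, 2.67 and 2.82 RPKM after p53 RNAi, against 8.80, 8.06, 7.90 and 7.79 RPKM in the control. The groups did not overlap, and these values rest on 106 to 327, 63 to 146 and 221 to 419 reads per library. Its log2 fold changes were -1.29 ± 0.19 and -1.38 ± 0.19 (SE; limma adjusted p = 2.4e-05 and 8.2e-06). At day 13 it had 1.66 to 3.38 RPKM after zfp1 RNAi and 2.19 to 3.58 RPKM after p53 RNAi. The day 13 controls were at 9.97, 9.87 and 5.23 RPKM, the lowest being replicate 5, which stood apart. Its knockdown levels changed little between days 6 and 13, by -0.28 and -0.32.

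SMED30000427 was among the most lowered at day 9 with both knockdowns. It had 0.718, 0.721, 0.430 and 0.406 RPKM after zfp1 RNAi. It had 0.209, 0.589, 0.780 and 0 RPKM after p53 RNAi, against 2.01, 5.44, 3.10 and 1.90 RPKM in the control. Neither knockdown overlapped with the control, whose own libraries were spread more widely than those of either knockdown. The log2 fold changes were -1.32 ± 0.26 after zfp1 RNAi and -1.52 ± 0.26 after p53 RNAi (SE; limma adjusted p = 0.0013 and 2.1e-04). With a pseudocount of 0.1 RPKM the zfp1 call was lost (adjusted p = 0.066). The groups of SMED30000427 were already apart at day 6. It then had 0.154 to 0.535 RPKM after zfp1 RNAi. After p53 RNAi it had 0 to 0.984 RPKM, against 1.029 to 1.796 RPKM in the control. Its day 6 differences were -0.86 and -0.61. With a control median of 1.367 RPKM the log2(RPKM + 1) scale leaves little room below -1. It reached the floor of 3 RPKM in the day 13 control alone.

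SMED30002663 was one of the most abundant of the set in the day 13 control. At day 9 it had 23.8, 19.0, 30.3 and 29.9 RPKM after zfp1 RNAi. It had 19.2, 20.2, 22.5 and 34.1 RPKM after p53 RNAi, against 40.8, 35.2, 52.2 and 55.0 RPKM in the control. Each knockdown library lay below each control library, the closest pair being 34.1 RPKM after p53 RNAi and 35.2 in the control. The log2 fold changes were -0.81 ± 0.20 and -0.92 ± 0.20 (SE; limma adjusted p = 0.011 and 0.0031). Its control medians were 65.6, 46.5 and 68.7 RPKM at days 6, 9 and 13, so the control was lowest on the day tested. Between days 6 and 13 it changed by -0.82 after zfp1 RNAi, -0.65 after p53 RNAi and 0.07 in the control, so that here the larger changes were on the knockdown side. The zfp1 call was lost without unc22 day 9 replicate 3 or 4 or zfp1 day 9 replicate 2 (adjusted p = 0.056, 0.064 and 0.078), and per total reads of the library (adjusted p = 0.09). The p53 call was lost when only the compared groups were fitted (adjusted p = 0.053).

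SMED30004267, 970 bases long and just inside the day 6 threshold, had lower knockdown medians than control medians at each day. At day 6 both knockdowns overlapped with the control. It then had 2.22 to 6.36 RPKM after zfp1 RNAi and 3.64 to 5.73 RPKM after p53 RNAi, against 5.48 to 10.9 RPKM in the control. At day 9 it had 2.02, 3.28, 2.32 and 1.77 RPKM after zfp1 RNAi. It had 2.18, 1.22, 1.72 and 2.13 RPKM after p53 RNAi, against 5.39, 5.30, 6.36 and 5.90 RPKM in the control. The groups did not overlap. The log2 fold changes were -1.03 ± 0.23 and -1.27 ± 0.23 (SE; limma adjusted p = 0.0046 and 0.00039), and both calls held with any day 9 library left out. At day 13 it had 1.71, 0.800, 0.570 and 0.925 RPKM after zfp1 RNAi. It then had 1.70, 3.23, 3.71 and 1.69 RPKM after p53 RNAi, against 8.53, 9.18 and 7.86 RPKM in the control. Between days 6 and 13 it changed by -1.40 after zfp1 RNAi, by -0.70 after p53 RNAi and by -0.02 in the control.

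SMED30018297 was the most lowered called transcript after zfp1 RNAi. It had 0.447, 1.12, 1.72 and 1.01 RPKM after zfp1 RNAi at day 9. It had 1.17, 0.472, 2.91 and 1.65 RPKM after p53 RNAi, against 3.97, 5.08, 5.00 and 3.76 RPKM in the control. The groups did not overlap. The log2 fold change was -1.42 ± 0.39 after zfp1 RNAi (SE; limma adjusted p = 0.035). After p53 RNAi it was -1.18 ± 0.39 (SE; limma adjusted p = 0.099), and it was called without the 3 libraries that stood apart (adjusted p = 0.042). The zfp1 libraries held 2 to 15 reads of it, and its zfp1 call was lost on leaving out any of 7 of the 8 day 9 libraries compared (adjusted p from 0.059 to 0.15) and with a pseudocount of 0.1 RPKM (adjusted p = 0.25).

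Strongly negative changes in both knockdowns between days 6 and 13 were seen in SMED30005838 and SMED30030996, which also had the most negative changes of the control. SMED30005838 changed by -2.65 after zfp1 RNAi, -1.44 after p53 RNAi and -0.14 in the control. Without the 3 libraries that stood apart its zfp1 change was -1.53. At day 6 it had 37.1, 3.52, 7.12 and 17 RPKM after zfp1 RNAi. It then had 6.63, 6.03, 7.38 and 5.69 RPKM after p53 RNAi, against 27.8, 8.91, 12.4 and 9.93 RPKM in the control. The zfp1 libraries of day 6 were spread widely and overlapped with the control, and the highest of them was replicate 1, which stood apart.

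At day 9 SMED30005838 had 6.91, 5.20, 5.32 and 5.72 RPKM after zfp1 RNAi. It had 0.603, 1.70, 2.25 and 0.850 RPKM after p53 RNAi, against 9.04, 6.72, 15.8 and 6.5 RPKM in the control. The p53 libraries lay below both other groups, while the zfp1 and control libraries overlapped. The p53 fold change was the lowest of the set, -2.14 ± 0.45 (SE; limma adjusted p = 0.0027), and that of zfp1 RNAi was -0.56 ± 0.45 (SE; limma adjusted p = 1). At day 13 it had 1.88, 1.81, 0.341 and 0 RPKM after zfp1 RNAi. It then had 2.3, 1.51, 1.91 and 0.393 RPKM after p53 RNAi, against 11.7, 10 and 5.32 RPKM in the control. By day 13 both knockdowns lay below every control library. It is 270 bases long, and the p53 libraries of day 9 held 1 to 8 reads of it.

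SMED30030996 changed by -2.59 after zfp1 RNAi, -1.66 after p53 RNAi and -0.56 in the control, and by -1.29 after zfp1 RNAi without the 3 libraries that stood apart. At day 9 it had 3.73, 6.55, 2.12 and 4.62 RPKM after zfp1 RNAi. It had 1.40, 1.31, 7.27 and 0.492 RPKM after p53 RNAi, against 7.34, 9.94, 12.5 and 6.33 RPKM in the control. One library of each knockdown reached into the control's range. The p53 call (log2 fold change -1.76 ± 0.49, SE; limma adjusted p = 0.034) was lost on leaving out any of 6 of the 8 libraries compared. It was also lost with a pseudocount of 0.1 RPKM (adjusted p = 0.16), when only the compared groups were fitted (adjusted p = 0.09) and with limma-voom (adjusted p = 0.085). At day 13 it had 0 to 1.63 RPKM after zfp1 RNAi and 0 to 2.14 RPKM after p53 RNAi, against 5.13 to 5.63 RPKM in the control.

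**Figure D4:**
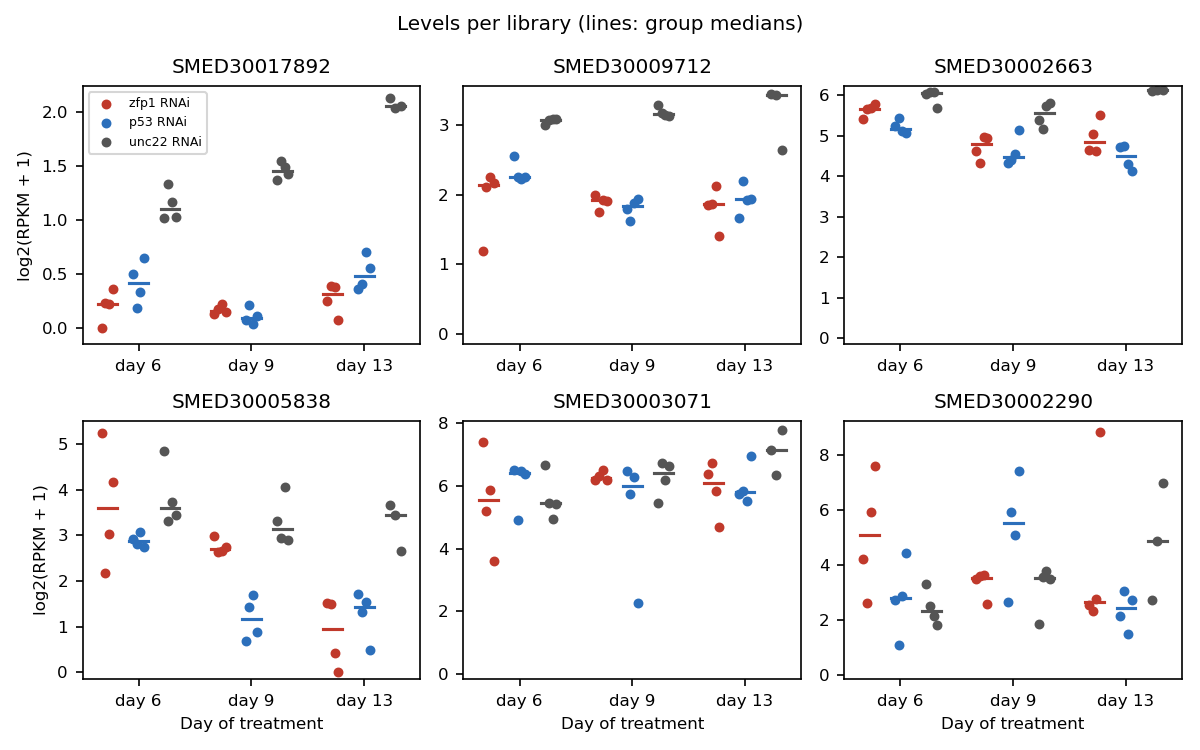
Level per library, as log2(RPKM + 1), of 6 of the 36 transcripts at days 6, 9 and 13 after zfp1 RNAi (red), p53 RNAi (blue) and unc22 RNAi (grey); each point is a library and each line a group median. SMED30017892 and SMED30009712 are apart from the control at each day, SMED30005838 is apart after zfp1 RNAi only at day 13, and SMED30003071 and SMED30002290 vary as much within groups as between them.

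The knockdowns themselves were compared at day 9. The differences use no control library, but the estimate of the spread is shared by all 9 groups. None of the 36 transcripts was called between zfp1 and p53 RNAi by limma, where 0.12% of all tested were, and none by limma-voom. At an unadjusted p under 0.05 there were 4, where 7.74% of all were. The median difference was 0.12, and 0.02 over all tested, with 24 of 36 positive. For 21 of 36 transcripts the 95% interval of the difference lay within -1 and 1, and the median width of the interval was 1.26. In the others a 2-fold difference between the knockdowns lies within the interval. The smallest adjusted p was 0.25, for SMED30005838, whose difference was 1.58 with a 95% interval from 0.67 to 2.49. It was called without the 3 libraries that stood apart (adjusted p = 0.027).

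The 15 transcripts called at day 9 and the 21 not called had different values at days 6 and 13. The split was made after the day 9 values were seen, so these are descriptions with no test. In the 15, the median difference from the control at day 6 was -0.76 after zfp1 RNAi and -0.61 after p53 RNAi. In the 21 it was -0.31 and -0.16. A difference under -0.5 at day 6 with at least one knockdown was present in 14 of the 15 and in 5 of the 21. The median change between days 6 and 13 in the 15 was -0.36 after zfp1 RNAi, -0.53 after p53 RNAi and 0.21 in the control. In the 21 it was 0.09, -0.17 and 1.05. The control was higher by 1 or more at day 13 in 1 of the 15 and in 12 of the 21.

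The 48 transcripts that were at -1 or lower with both knockdowns at days 6 and 13 give a scale for day 9. Of these, 47 were called lower after zfp1 RNAi and 48 after p53 RNAi, with median fold changes of -1.91 and -1.96, against 13 and 11 of the 36 and medians of -0.67 and -0.80. Their median changes between days 6 and 13 were -0.27, -0.31 and 0.28 after zfp1, p53 and unc22 RNAi. The difference between the sets was not tested, since both were chosen on these comparisons at other days.

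Among the 21 transcripts not called at day 9 were some whose level varied by library more than by group. SMED30003071, the most abundant of the 36 in the day 13 control and the shortest at 150 bases, had 81.6, 105, 55.6 and 24.9 RPKM after zfp1 RNAi at day 13. It had 52.3, 56.4, 45.1 and 122 RPKM after p53 RNAi, against 139, 80.8 and 219 RPKM in the control. Both knockdowns overlapped with the control even on the day that chose it. At day 9 it had 71.5 to 88.4 RPKM after zfp1 RNAi and 3.83 to 86.8 RPKM after p53 RNAi, against 43.0 to 105 RPKM in the control. The fold changes were 0.04 ± 0.68 and -1.06 ± 0.68 (SE), and neither was called.

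SMED30023271, and SMED30033509, chosen after its values were seen, were high and low in some of the same libraries as SMED30003071. All 3 were highest, among the 4 libraries of zfp1 RNAi at day 6, in replicate 1, at 32.1, 16.9 and 165 RPKM. At day 9 all 3 were lowest of the p53 libraries in replicate 4, at 1.27, 0.522 and 3.83 RPKM. In the control at day 9 all 3 were lowest in replicate 1, at 2.25, 3.56 and 43.0 RPKM. Without that control library the zfp1 fold changes of all 3 at day 9 turned negative, to -0.34, -0.01 and -0.22, in place of 0.23, 0.18 and 0.04.

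SMED30023271 had one of the largest positive changes of the control between days 6 and 13, of 2.44. At day 6 it had 32.1, 3.17, 2.44 and 2.31 RPKM after zfp1 RNAi. It then had 12.1, 2.76, 10.8 and 17.4 RPKM after p53 RNAi, against 15.6, 3.71, 4.08 and 3.66 RPKM in the control. The day 13 libraries had 15.7, 17.2, 8.69 and 4.70 RPKM after zfp1 RNAi. It then had 6.88, 11.2, 5.03 and 16.0 RPKM after p53 RNAi, against 30.0, 10.8 and 25.5 RPKM in the control. The groups overlapped on both days, and after zfp1 RNAi its level was also higher at day 13 than at day 6, by 1.79.

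SMED30018045 and SMED30002774, next to the thresholds, were higher at day 13 than at day 6 in all 3 RNAi groups. SMED30018045 changed by 0.51 after zfp1 RNAi, 0.73 after p53 RNAi and 1.75 in the control, and SMED30002774 by 0.71, 0.69 and 1.22. At day 13 SMED30002774 had 6.45, 5.32, 5.02 and 7.28 RPKM after zfp1 RNAi. It had 10.5, 8.09, 6.43 and 8.04 RPKM after p53 RNAi, against 18.6, 12.3 and 52.6 RPKM in the control. The knockdowns lay below the control, and the highest control, replicate 5, was a library that stood apart. Neither transcript was called at day 9 in limma over all libraries, and SMED30002774 was called after p53 RNAi only without p53 day 9 replicate 3 (adjusted p = 0.041).

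SMED30002290 and SMED30000623 had the highest day 9 fold changes of the set. SMED30002290 had 10.1, 11.2, 11.6 and 5.06 RPKM after zfp1 RNAi at day 9. It had 5.31, 60.2, 33.2 and 170 RPKM after p53 RNAi, against 2.60, 10.7, 12.7 and 10.3 RPKM in the control. Its p53 fold change of 2.11 ± 1.12 (SE; limma adjusted p = 0.44) came from 3 of 4 libraries and was not called. At day 6 it reached 60.4 and 194 RPKM in replicates 3 and 4 of zfp1 RNAi. At day 13 it had 4.88, 4.00, 5.76 and 463 RPKM after zfp1 RNAi. It had 3.37, 7.23, 1.8 and 5.62 RPKM after p53 RNAi, against 5.62, 28.4 and 125 RPKM in the control. The median hides 463 RPKM in zfp1 replicate 5, the highest value of this transcript in any library, and the control's lowest library lay within the knockdown range.

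SMED30000623 was high in the same libraries. It reached 6.08 and 25.2 RPKM in replicates 3 and 4 of zfp1 RNAi at day 6. It reached 7.21, 2.5 and 15.6 RPKM in replicates 2, 3 and 4 of p53 RNAi at day 9, and 53.9 RPKM in replicate 5 of zfp1 RNAi at day 13. In the control it reached 2.65 and 10.1 RPKM in replicates 4 and 5 at day 13. Its p53 fold change at day 9 was 2.00 ± 0.87 (SE; limma adjusted p = 0.28), and it was called higher without the 3 libraries that stood apart (adjusted p = 0.03). Both transcripts were highest, among zfp1 and among unc22 libraries of day 13, in replicate 5, and both of these libraries stood apart. The part of that in these levels was not tested.

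Which transcripts make up the set depends on the 3 control libraries of day 13 and on the pseudocount. Without unc22 day 13 replicate 5, which stood apart, 25 transcripts met the rule, 22 of them among the 36. These 22 held 14 of the 15 transcripts called at day 9 and 8 of the 21 not called. Without replicate 1 there were 203, of which 27 were among the 36, and without replicate 4 there were 186, of which 32 were. With day 13 control values from replicate 5 alone 847 transcripts met the rule, against 61 from replicate 1 alone and 34 from replicate 4 alone. In replicate 5 the level was the highest of the 3 controls for 20 of the 36 and the lowest for 11. It was at least 2-fold above the mean of the other controls for 10. Without all 3 libraries that stood apart, 24 transcripts met the rule, 19 of them among the 36. With all libraries and a pseudocount of 0.1 RPKM in place of 1 RPKM, 49 transcripts met it, 25 of them among the 36. These 25 held 7 of the 15 transcripts called at day 9 and 18 of the 21 not called.

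**Figure D5:**
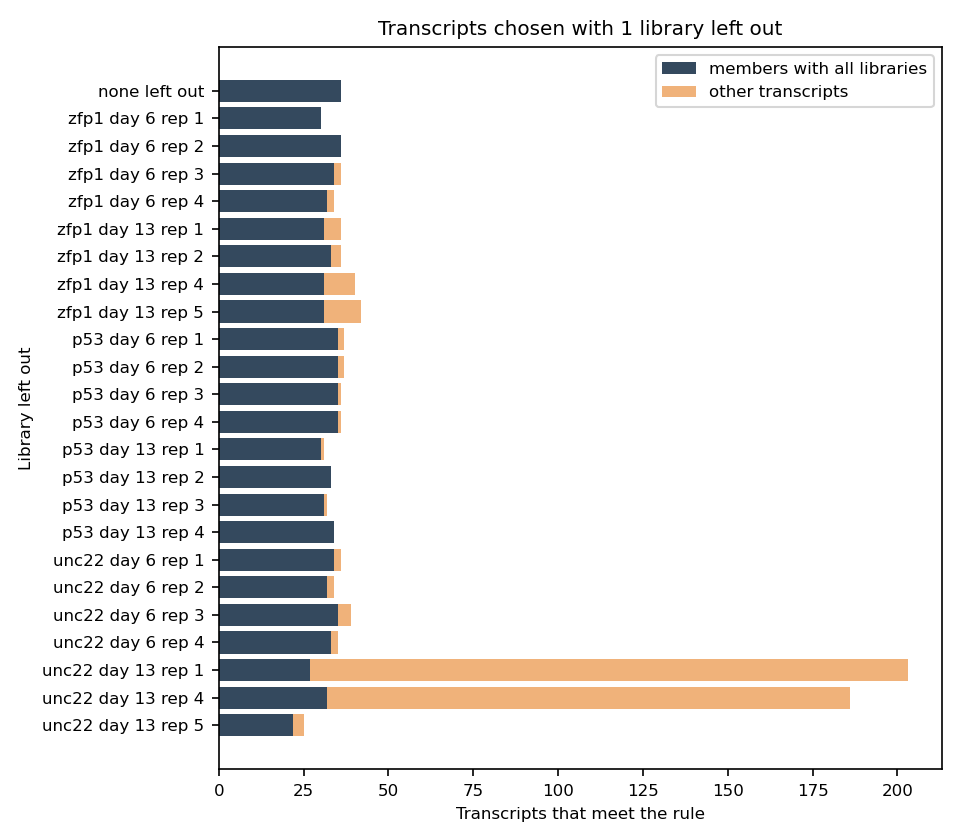
Number of transcripts that met the rule with 1 library of day 6 or day 13 left out; the dark part of each bar counts those among the 36 and the light part counts others. Leaving out unc22 day 13 replicate 1 or 4 raised the count to 203 or 186, and leaving out replicate 5 lowered it to 25; the other bars lie between 30 and 42.

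Transcript length, which the rule did not use, is given as a description. The recovered lengths of the 36 ran from 150 to 4149 bases with a median of 556, against a median of 1309 over the 11932 transcripts of at least 3 RPKM and of 1044.5 over the 48 lower at both days. Under 500 bases were 14 of the 36 (38.9%), against 10.9% of the 11932 and 4.2% of the 48. The median length was 989 bases in the 15 called at day 9 and 455 bases in the 21 not called. Short transcripts give few reads at a given RPKM. The median of the 36 was 29.5 reads per library after zfp1 RNAi at day 9, 17.25 after p53 RNAi and 34 in the control. After zfp1 RNAi 11 transcripts had a median under 10 reads, after p53 RNAi 14 and in the control 7, and such values carry a wide counting error. The part of length and depth in the choice of these transcripts was not tested.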

How the data were processed

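The table of the authors holds RPKM (reads per transcript length and library size) for 25462 transcripts in 35 libraries, 1 column each. Per the labels' protocols, animals were fed double-stranded RNA, X1 cells were sorted by Hoechst staining, and polyA libraries were made with the TruSeq kit. Per the submitters' processing notes CASAVA 1.8.2, Bowtie and edgeR were used, with no role or order named; the transcript assembly is not given in the sources used here. Groups, days and replicate numbers came from the labels.

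Each deposited RPKM value was turned back into whole reads, and each transcript given a length, with numpy 2.4.6, and 100.0% of values came out whole within 0.01 reads. Library divisors so found lay at 0.617 to 1.207 of the total reads. No libraries of a group agreed within sampling noise, but some pairs came near it. The mean chi-square per transcript was 1.68 between replicates 3 and 4 of unc22 RNAi at day 9. Other pairs of that group lay at 8.64 to 19.4. It was 1.76 between replicates 3 and 4 of zfp1 RNAi at day 9, where other pairs lay at 5.27 to 19.4. Replicates 1 and 3 of p53 RNAi at day 13, a day that chose the transcripts, were at 1.94, where other pairs lay at 4.39 to 12.4. The fits took each library as separate.

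Day 9 was tested on log2(RPKM + 1) by limma 3.58.1 (R 4.3.3). The model held 9 group means and an intensity trend, with Benjamini-Hochberg adjustment over the 19206 transcripts that reached 1 RPKM in 3 libraries or more. This scale understates changes of weakly expressed transcripts. The test was run on simulated libraries with the same spread throughout, none of which stood apart. That run cannot show how the calls hold in the real libraries. The members, lists and tests were chosen with earlier results of these data known. Named transcripts were the 2 highest in the day 13 control, the 2 most lowered called at day 9 without overlap per knockdown, the 2 with the highest day 9 fold changes, those next to each threshold, and the 2 largest control rises and falls; others are said to be chosen after their values were seen, and SMED30033509 is one of these. Alternatives were other pseudocounts, filters, scalings, fits, limma-voom on the recovered reads and leaving out libraries.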

Additional observations from a re-analysis of the deposited data

Results flagged for a closer look

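In groups of 4 libraries, a library was marked when its gap to the nearest other exceeded the critical share of the group's range in Dixon's test at the 95% level. This gave 15 marks in 128 tests of the named transcripts, where chance gives about 1 in 20. The tests share libraries and transcripts, so the marks are not independent.

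Several marks fell on the same libraries. In zfp1 day 6 replicate 1, which stood apart, SMED30023271 was high at 32.1 RPKM and SMED30009712 low at 1.29 RPKM. In zfp1 day 13 replicate 5, which also stood apart, SMED30002290 was at 463 RPKM and SMED30000623 at 53.9 RPKM, both highest of their group. In unc22 day 9 replicate 1, SMED30002290 at 2.6 RPKM, SMED30023271 at 2.25 RPKM and SMED30000623 at 0 RPKM were the lowest of their group. In p53 day 6 replicate 2, SMED30003071 at 28.9 RPKM and SMED30033509 at 1.85 RPKM were lowest. In unc22 day 6 replicate 1, SMED30023271 was highest at 15.6 RPKM and SMED30009712 lowest at 7.04 RPKM.

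The remaining marks were single values. SMED30002290 was lowest at 5.06 RPKM in zfp1 day 9 replicate 4. In p53 day 6, SMED30000623 was highest at 3.1 RPKM in replicate 4 and SMED30009712 highest at 4.87 RPKM in replicate 1. SMED30002663 was lowest at 50.5 RPKM in unc22 day 6 replicate 4.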

How the results depend on the processing

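The day 9 counts were 13 for zfp1 RNAi, 11 for p53 RNAi, 9 for both and 0 between the knockdowns. With a filter of a mean of at least 5 RPKM, which left 14 of the 36 transcripts to test, the first 3 counts were 3, 3 and 1. A fit on the compared groups alone gave 7 for p53 RNAi. Omitting the 3 libraries that stood apart gave 18 for p53 RNAi, 14 for both and 1 between the knockdowns. Leaving out 1 day 9 library gave 9 to 13 for zfp1 RNAi, 9 to 12 for p53 RNAi, 6 to 11 for both, and 0 to 0 between the knockdowns. The median fold changes of -0.67 and -0.80 became -0.85 and -1.09 with a pseudocount of 0.1 RPKM, -0.38 and -0.41 with 5 RPKM, and -0.89 and -1.05 with limma-voom, and ranged from -0.72 to -0.67 and from -0.84 to -0.76 with 1 library left out. The cause of these shifts was not tested.

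The number of transcripts that met the rule was 36. With a pseudocount of 0.1 RPKM it was 49 (25 of them among the 36), and with 5 RPKM 13 (4 of them). It was 74 with group means (21 of them among the 36) and 17 per total reads of the library (15 of them). A floor of 1 RPKM gave 63 and a floor of 10 RPKM gave 13. The number was 61 with the day 13 control from replicate 1 alone and 847 from replicate 5 alone. Leaving out 1 library gave 25 to 203.

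The labels give the recurring replicate numbers no meaning. At day 9 the correlations of same-numbered libraries were 0.03, 0.61, 0.28 and 0.34 between zfp1 RNAi and the control, and 0.02, 0.35, -0.01 and 0.19 between p53 RNAi and the control. Not every pair of either comparison passed 0.1, so the numbers were not taken as pairs. The same-numbered control gave the highest correlation for zfp1 replicates 2 and 4 and p53 replicates 1 and 2, not for the others. Whether same-numbered libraries share a preparation was not tested. A replicate block gave counts of 13, 15, 11 and 0 in the order above. A replicate block within each day, added after seeing the data, gave 17 for p53 RNAi and 1 between the knockdowns. The higher p53 value of SMED30000623 was called with the first block (adjusted p = 0.039), and the lower p53 value of SMED30018297 (adjusted p = 0.0093) and the difference between the knockdowns for SMED30005838 (adjusted p = 0.047) with the second.

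For the named transcripts, 973 of the recomputed fold changes kept their direction and their side of the threshold, 23 lost the call, 7 gained one and 8 turned sign, none of these 8 called. The difference between zfp1 and p53 RNAi for SMED30002774 turned to -0.06 with limma-voom, and to -0.15 and -0.2 without p53 day 9 replicates 1 and 4; it ran from -0.2 to 0.53 with 1 library left out. The zfp1 fold change turned negative without unc22 day 9 replicate 1 for 4 transcripts, and for SMED30003071 also without zfp1 day 9 replicate 3, to -0.03. With 1 library left out it ran from -0.22 to 0.20 for SMED30003071, from -0.27 to 0.41 for SMED30002290, from -0.34 to 0.47 for SMED30023271 and from -0.01 to 0.30 for SMED30033509, the lowest being the value without that control library.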
